A study of Mus musculus with 10 samples.

Results

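The 4T1 line is a mouse mammary carcinoma line that spreads from the fat pad to the lung, and here its transcriptome after passage through mice was set against the line before passage. The comparison held 9 mouse-passaged lines and 1 parental line, which are all 10 RNA-seq libraries of the study. Lines entered the passaged side when their titles named a primary tumour, circulating tumour cells (CTC) or a metastasis, and the parental side was the single library titled 4T1-hHER2.

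The passaged lines were cell lines labelled with the NOD-SCID-GAMMA (NSG) strain, an immunodeficient host that lacks T, B and natural killer cells but keeps stromal, endothelial and most myeloid cells. Their common ancestors were CTCs recovered from NSG mice in which orthotopic 4T1-hHER2-Luc tumours had spread spontaneously. Of these lines, 3 were taken from a fat pad xenograft (primary 5, 7 and 8), 3 from CTCs (CTC 1, 3 and 6) and 3 from lung metastases (metastasis 5, 3 and 7), numbered as in the titles. The parental line, of strain BALB/cfC3H, had been infected with a lentivirus for stable expression of human HER2 and luciferase, so that all 10 lines trace back to HER2-Luciferase-carrying cells. Each line gave 1 library, and passage in a mouse, the CTC bottleneck and return to culture all lie between the passaged lines and the parental line, so their parts cannot be told apart. The labels state neither animal age nor time in culture.

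As background, a tumour cell that leaves the fat pad and reaches the lung has to pass low oxygen, loss of matrix contact and an immune environment. Hypoxia-inducible factors switch on glycolytic enzymes and glucose uptake. ERK signalling downstream of ERBB receptors induces transcription factors such as Egr1 and Etv4 together with its own inhibitors of the Sprouty and Dusp families. NF-kB induces chemokines of the Cxcl and Ccl families and its own inhibitor Nfkbia.

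The libraries held 63275645 to 77476609 counts on annotated genes in the 9 passaged lines and 74304872 in the parental line. Levels are given as CPM, the count scaled to library size, and as the lowest, median and highest of the 9 lines. Of 55418 annotated gene entries, 19936 passed the filter on low counts and were tested. That filter goes by the size of the smallest group, here the 1 parental library. A gene could therefore pass on the parental library alone. The summed level of 8 mammary carcinoma markers was 1720 to 6920 CPM in the 9 lines and 1270 CPM in the parental line. Of the host blood cell markers, most were at or near 0. Ptprc, the pan-leukocyte phosphatase CD45, reached 0.232 CPM in the 9 lines, against 0 in the parental line, and Adgre1, Ly6g and Hba-a1 had 0 counts in all 10 libraries. The 6 macrophage and myeloid markers summed to 0.707 to 7.17 CPM in the 9 lines and 0.737 CPM in the parental line, nearly all of it Cd68, a lysosomal protein gene used as a macrophage marker, which was highest in CTC 6 (7.14 CPM) and primary 5 (5.34 CPM). Fibroblast markers summed to 5.07 to 284 CPM in the 9 lines and 5.1 CPM in the parental line. Most of that sum was the receptor Pdgfra, at 4.05 to 269 CPM in the 9 lines and 4.45 CPM in the parental line, while Dcn reached 12.4 CPM in the 9 lines, against 0 in the parental line, and Col1a1 and Col3a1 reached 2.32 and 0.325 CPM. In such bulk libraries, fewer cells that express a gene and less RNA per cell cannot be told apart. Mouse Erbb2, the counterpart of the human HER2 transgene, was at 25.9, 49.1 and 60.3 CPM in the 9 lines and 34.8 CPM in the parental line, inside their range. That range is of the gene sum. In unscaled counts, 1 transcript had 1179 to 3929 in the 9 lines and 1041 in the parental line. Another went the other way, with 5 to 1212 in the 9 lines and 1413 in the parental line. The human sequence itself is no entry of the annotated mouse genes and was not analysed here.

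Many genes lay on one side of the parental level in every passaged line, but hardly any passed a test. All 9 lines were above the parental line for 2808 genes (14.1% of those tested) and below it for 3067 (15.4%). Any 1 of 10 libraries, if no different from the rest, would be lowest for about 1 gene in 10 and highest for about as many. Both shares were only modestly above that. With a gap of at least 2-fold between the parental level and the nearest of the 9 lines, on log2(CPM + 0.25), 282 genes (1.41%) were higher in all 9 lines and 136 (0.682%) were lower. With the filter set instead at a mean of at least 2 CPM, they were 270 and 28. All these counts describe 1 parental library against the range of the 9 lines and carry no test. edgeR's quasi-likelihood test, in which the parental library is assumed to vary like the passaged lines of 1 tissue, called 1 gene higher (0.00502%) and 3 lower (0.015%) at an adjusted p under 0.05. Without adjustment, 1170 genes (5.87%) were higher and 889 (4.46%) lower at p under 0.05. DESeq2 on the same counts and groups called 605 higher and 68 lower. limma-voom called 2 higher and 22 lower, or 1 and 18 with the line's number as a random replicate block. The median change over all genes tested was 0.10 on the log2 scale, and p-values here measure only the spread between lines.

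The lines differed in how far they stood from the parental line. CTC 6 had 2840 genes at least 2-fold from the parental level, primary 8 had 3052 and metastasis 7 had 3543, against 7021 in metastasis 5. The root mean square log2 difference ran from 0.81 to 1.39 between a passaged line and the parental line (median 1.14) and from 0.54 to 1.31 over the 36 pairs of passaged lines (median 0.939). Distances to the parental line thus overlapped those between passaged lines. CTC 6 was the nearest line to the parental line, and primary 8 was the nearest to CTC 6. Each source tissue held lines at different distances, with 5434 such genes in primary 5 and 6664 in CTC 3. Among the 282 genes higher in all 9 lines, the line closest to the parental level was most often primary 8 (94 genes), CTC 6 (61) or metastasis 7 (53), and the line farthest from it was most often metastasis 5 (100).

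**Figure D1:**
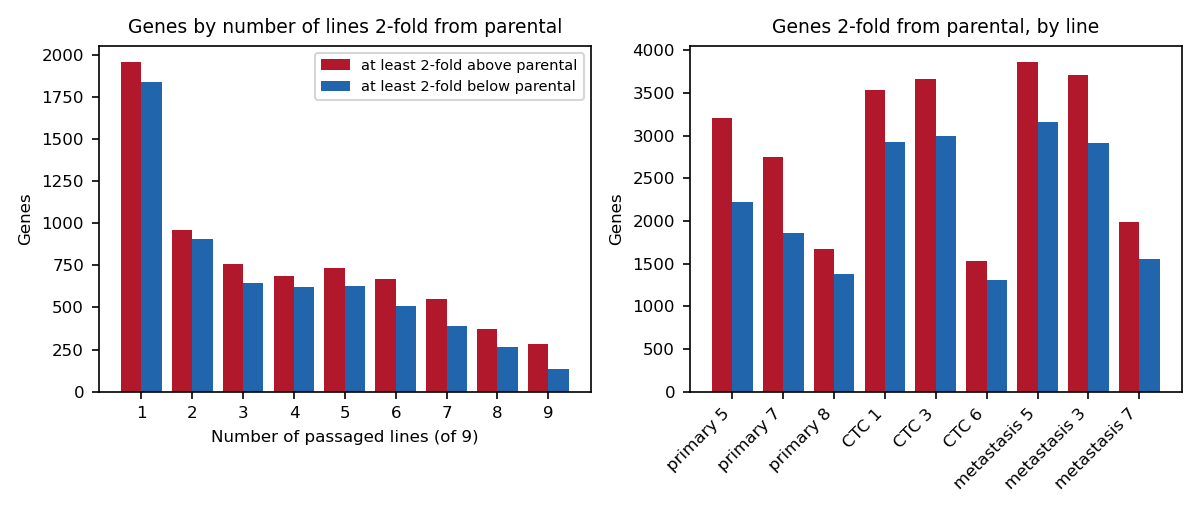
Number of genes at least 2-fold from the parental level, on log2(CPM + 0.25). Left, genes by the number of passaged lines in which this held, from 1 to 9, red above and blue below the parental line: 1956 genes were above it in 1 line and 282 in all 9. Right, the same counts in each passaged line, from 2840 in total in CTC 6 to 7021 in metastasis 5.

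The 4 genes that passed the edgeR test all shared exons with another annotated gene. Ftl1-ps1, a ferritin light chain related gene at chr13:74399694-74407346 on the plus strand of GRCm38, was at 53.2, 71.1 and 111 CPM in the 9 lines and had 0 counts in the parental line, at least 1670-fold higher by the median over a floor of 3 counts (edgeR adjusted p = 0.0011; 0.0702 by limma-voom and 0.119 with the replicate block). Gm47428, an antisense gene at chr13:74404183-74406737 on the minus strand, ran the other way, with 0.17, 0.316 and 0.446 CPM in the 9 lines and 29.3 CPM in the parental line (edgeR adjusted p = 0.000932). Mir692-3, which lies inside an exon of Ftl1-ps1, reached 0.0155 CPM in the 9 lines, against 2.25 CPM in the parental line (edgeR adjusted p = 0.000932). The fourth was Gm12978, a processed pseudogene on chromosome 4 inside Gm12992, with at most 0.0155 CPM in the 9 lines and 1.94 CPM in the parental line (edgeR adjusted p = 0.000932). Mir692-3 and Gm12978 had 1 count in each of the 9 lines. They passed the filter only through the parental library, where they are high, so their calls are no separate support. Gm12992 itself had 4.88, 11.2 and 25.7 CPM in the 9 lines and 0.467 CPM in the parental line. When the entries that share exons were summed, an alternative added after the data were seen, the Ftl1-ps1 locus was at 53.3, 71.3 and 111 CPM in the 9 lines and 31.5 CPM in the parental line, a log2 change of 1.28 ± 0.46 (SE, edgeR adjusted p = 0.473). The Gm12992 locus was then at 4.9, 11.2 and 25.8 CPM in the 9 lines and 2.41 CPM in the parental line (edgeR adjusted p = 0.473). With these sums, edgeR called 0 genes in either direction. Within each locus, the counts stood on different entries in the parental library and in the passaged lines. Reads assigned to newly assembled transcripts are outside the annotated genes, so a gene listed at 0 is not shown to lack reads.

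Next by p-value were Fas and Postn. Fas, the cell surface death receptor that Fas ligand engages, was at 5.8, 7.46 and 14.8 CPM in the 9 lines and 62.1 CPM in the parental line. The lines did not overlap the parental level, the median line was 8.32-fold lower, and the log2 change was -2.96 ± 0.35 (SE, edgeR adjusted p = 0.0556). Its adjusted p was 0.0449 with upper quartile scaling, 0.0308 with the passaged lines as 1 group, 0.0247 without metastasis 5, and 0.0188 by limma-voom, did not pass with the replicate block, and ran from 1.22e-07 (DESeq2) to 0.238 over all alternatives. Postn, which encodes the matrix protein periostin, was at 0, 0.0818 and 19.4 CPM in the 9 lines and 36.6 CPM in the parental line (log2 change -7.15, edgeR adjusted p = 0.0634). Its adjusted p was 0.0495 without metastasis 7, 0.00571 by limma-voom, 0.00921 with the replicate block and 3.2e-07 by DESeq2, but with the passaged lines as 1 group the log2 change was -3.06 and the adjusted p 0.615. Its 3 highest values were those of the 3 primary lines, at 8.59, 11.2 and 19.4 CPM, and no CTC or metastasis line reached 0.1 CPM. Stat6, the transcription factor of interleukin-4 and interleukin-13 signalling, was at 173, 218 and 316 CPM in the 9 lines and 28.6 CPM in the parental line (edgeR adjusted p = 0.162), and passed with the replicate block (adjusted p = 0.0495), in a range of 6.66e-12 to 0.392 over all alternatives. Virma, a subunit of the RNA m6A methyltransferase complex, was at 72.2, 102 and 127 CPM in the 9 lines and 15.7 CPM in the parental line (edgeR adjusted p = 0.14). For the gene sums of Stat6 and Virma the 9 lines lay close together, well above the parental level. In unscaled counts, the main Virma transcript had 4277 to 8775 in the 9 lines and 878 in the parental line. Another Virma transcript overlapped, with 180 to 641 in the 9 lines and 226 in the parental line. Stat6 shares exon sequence with Nab2 on the other strand, and whether counting used strand was not stated. Exons are likewise shared, on the same or the other strand, by Erbb2 with Mien1, Aldoa with Fam57b, G6pdx with Ikbkg, Fdft1 with Ctsb and Taf5 with Usmg5, and by Gnao1, Pla2g7, Krt8, Itga1, Ctsl, Cd74, Elf3, Slc2a1, Spry1, Zeb1, Il34, Casz1 and Wnk4 with predicted genes or noncoding RNAs, so that their counts are uncertain.

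The widest gaps on the higher side belonged to genes at a low level in the parental library. Sema3b, a secreted semaphorin, was at 11, 28.4 and 80.6 CPM in the 9 lines and 0.142 CPM in the parental line, a log2 change of 7.91 ± 1.45 (SE, edgeR adjusted p = 0.259). Pcolce, an enhancer of procollagen C-proteinase, was at 64.4, 289 and 545 CPM in the 9 lines and 2.25 CPM in the parental line (edgeR adjusted p = 0.451), and shares exons with Fbxo24 and Gm36266. Aqp1, a water channel, was at 3.7, 131 and 408 CPM in the 9 lines and 0.0992 CPM in the parental line (edgeR adjusted p = 0.482). Primary 7, primary 8, CTC 6 and metastasis 7 had the 4 lowest values among the 9 lines for each of these 3 genes, and even these were above the parental level.

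Itgb2, the beta chain of the leukocyte integrins, was at 19.7, 63 and 252 CPM in the 9 lines and 0.609 CPM in the parental line (edgeR adjusted p = 0.451). Cyth4, a guanine nucleotide exchange factor for Arf GTPases, was at 4.73, 12.5 and 27.8 CPM in the 9 lines and 0.241 CPM in the parental line. Pla2g7, the secreted platelet-activating factor acetylhydrolase, was at 10.4, 16.8 and 49.9 CPM in the 9 lines and 0.963 CPM in the parental line. These 3 genes are best known from blood cells. In the same 9 lines Ptprc was at up to 0.232 CPM, Csf1r at up to 0.645 CPM and Lyz2 at up to 0.26 CPM. Cd68 was at 0.38, 1.28 and 7.14 CPM in the 9 lines and 0.666 CPM in the parental line. In CTC 6, its highest line, Cd68 was level with Cyth4 (7.24 CPM). In the other passaged lines Cd68 was below Cyth4, as in metastasis 3, its lowest line (0.38 against 23.6 CPM). The part of blood cells in these values was not tested.

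The remaining genes with the widest gaps above the parental line were mostly enzymes and signalling genes. Nme4, a mitochondrial nucleoside diphosphate kinase, was at 4.12, 8.59 and 18.2 CPM in the 9 lines and 0.241 CPM in the parental line. As3mt, which methylates arsenic, was at 4.52, 16.7 and 23.9 CPM in the 9 lines and 0.368 CPM in the parental line, and Uox, urate oxidase, at 3.17, 14.5 and 54.6 CPM in the 9 lines and 0.17 CPM in the parental line. Slc18b1, a vesicular polyamine transporter, was at 2.47, 4.61 and 7.66 CPM in the 9 lines and 0.113 CPM in the parental line. Gnao1, a G protein alpha subunit, was at 4.67, 29.2 and 98 CPM in the 9 lines and 0.411 CPM in the parental line, and the zinc finger gene Zfat at 2.74, 4.7 and 12.9 CPM in the 9 lines and 0.184 CPM in the parental line. None of these passed the edgeR test (adjusted p = 0.234 to 0.451), and in every case the 9 lines and the parental line did not overlap. Dusp27, an atypical phosphatase family member, had 1.46, 37.2 and 90.8 CPM in the 9 lines and 2 counts in the parental line.

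On the lower side, Myo5a, the actin-based vesicle motor myosin Va, was at 1.49, 2.6 and 31 CPM in the 9 lines and 155 CPM in the parental line, a log2 change of -5.20 ± 0.86 (SE, edgeR adjusted p = 0.234). The value of 31 CPM was that of primary 8, and no other passaged line exceeded 3.19 CPM. The parental counts lay mostly on transcripts that held 4330, 4062 and 2495 counts there and at most 3, 1 and 81 in the 9 lines. A different transcript reached 2098 counts in the 9 lines and had 6 in the parental line. Without primary 8 the log2 change was -6.05 and the edgeR adjusted p was 0.00115, so that Myo5a then passed the test; over all alternatives its adjusted p reached 0.464. Gadd45b, a stress-inducible gene of the growth arrest and DNA damage family, was at 4.05, 12.3 and 258 CPM in the 9 lines and 913 CPM in the parental line (edgeR adjusted p = 0.451). Its relative Gadd45g was at 3.39, 7.52 and 110 CPM in the 9 lines and 140.0 CPM in the parental line (edgeR adjusted p = 0.451). Primary 8 and primary 7 had the highest Gadd45b levels of the 9 lines, and the spread of those lines was wider than their gap to the parental line.

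Zfp65, a KRAB zinc finger gene, was at 1.29, 4.44 and 6.25 CPM in the 9 lines and 33.5 CPM in the parental line (edgeR adjusted p = 0.234). Mga, a MAX-binding repressor, was at 8.71, 12.5 and 26 CPM in the 9 lines and 74.4 CPM in the parental line (edgeR adjusted p = 0.162). Fnbp4, a formin-binding protein, was at 31.9, 45.2 and 67 CPM in the 9 lines and 183 CPM in the parental line (edgeR adjusted p = 0.234). For these 3 genes none of the 9 lines came within 2-fold of the parental level, although Zfp65 and Mga varied among the lines. Wnk4, a kinase that regulates ion transport, Casz1 and Zbtb40, both zinc finger transcription factors, Ppm1k, a mitochondrial phosphatase, and Taf5, a TFIID subunit, complete the 12 widest gaps below the parental line, with median levels of 1.64, 0.707, 8.77, 6.99 and 16.8 CPM in the 9 lines and 13.2, 16.2, 37.7, 23 and 61.7 CPM in the parental line. Unc5d, a netrin receptor gene, had 0 counts in all 9 lines and 9.77 CPM in the parental line. Serpina3g, a serine protease inhibitor gene, likewise had 0 counts in all 9 lines and 1.13 CPM in the parental line.

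**Figure D2:**
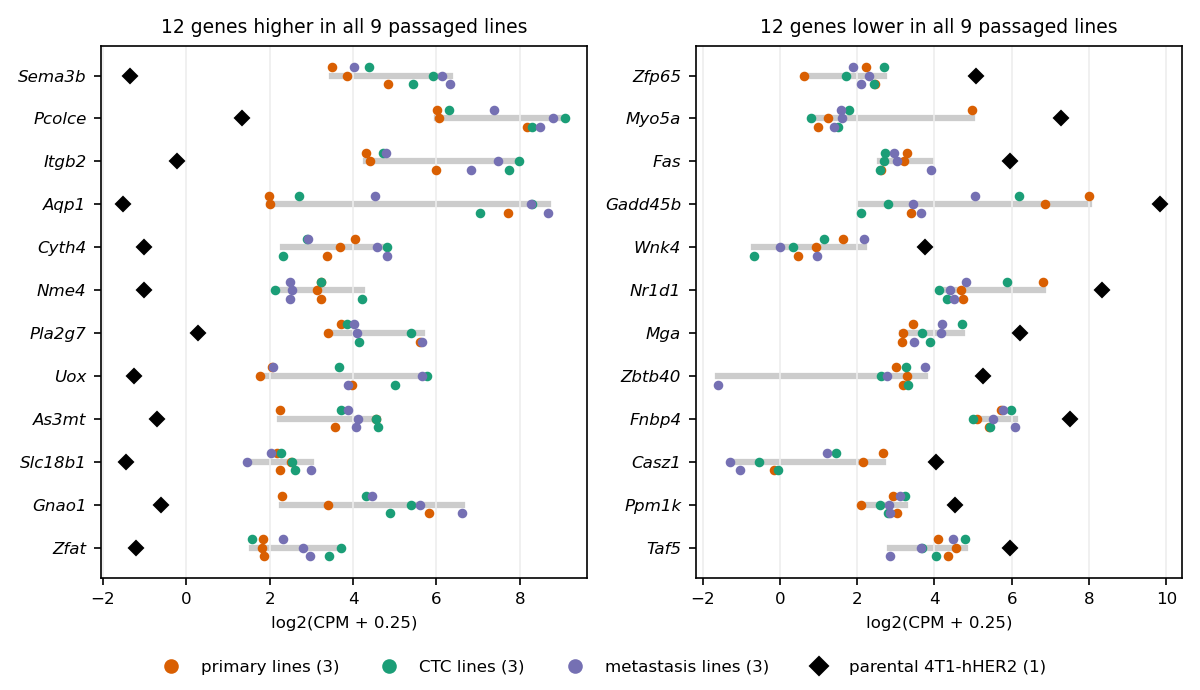
Level of the 12 genes with the widest gap above (left) and below (right) the parental line, on log2(CPM + 0.25). Coloured points are the 9 passaged lines by tissue, the grey bar spans them and the black diamond is the single parental library: Sema3b runs from 11 to 80.6 CPM in the 9 lines against 0.142 CPM in the parental line, and Fas from 5.8 to 14.8 CPM against 62.1 CPM.

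Nr1d1, the clock repressor REV-ERB alpha, was at 17.2, 25.5 and 111 CPM in the 9 lines and 320.3 CPM in the parental line (edgeR adjusted p = 0.339), and shares exon sequence with Thra on the other strand. Because Nr1d1 stood out, 17 tested genes of the circadian clock were then examined, a list chosen after values were seen. Of these, 6 (35.3%, against 15.4% of all genes tested) were lower and 1 (5.88%, against 14.1%) higher in all 9 lines, and 0 passed the edgeR test, with a median log2 change of -0.71. At an unadjusted p under 0.05, edgeR had 0 higher and 5 lower. Per2, a core clock repressor, was at 7.35, 16.5 and 26.9 CPM in the 9 lines and 58.3 CPM in the parental line. Clock itself was at 31.5, 53.7 and 65.6 CPM in the 9 lines and 91.8 CPM in the parental line, while its partner gene Arntl, at 4.95, 8.21 and 21.3 CPM in the 9 lines and 6.77 CPM in the parental line, overlapped it. The labels do not state the hour at which each culture was collected, and its part in these values was not tested.

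Hypoxia and glycolysis genes had the largest share of members above the parental line among the 28 pathway lists. Of 31 tested members, 12 (38.7%, against 14.1% of all genes tested) were higher in all 9 lines, 0 were lower in all 9, and 0 passed the edgeR test. Unadjusted, edgeR gave 8 higher and 0 lower at p under 0.05. Over all genes tested, such unadjusted calls made up 5.87% higher and 4.46% lower, the shares against which those of each list stand. The median log2 change was 0.78, against 0.10 over all genes tested. Tpi1, the triose phosphate isomerase of glycolysis, was at 282, 406 and 784 CPM in the 9 lines and 46.4 CPM in the parental line, 8.76-fold higher by the median (edgeR adjusted p = 0.259). In unscaled counts, its main transcript had 19248 to 56475 in the 9 lines and 1385 in the parental line. Another Tpi1 transcript overlapped, with 773 to 2993 in the 9 lines and 1813 in the parental line. Car9, a carbonic anhydrase and a standard hypoxia marker, was at 14.7, 41.6 and 80.2 CPM in the 9 lines and 2.25 CPM in the parental line (edgeR adjusted p = 0.451). Both genes share exon sequence with another gene on the other strand, Tpi1 with Spsb2 and Car9 with Gm12454. The liver-type phosphofructokinase Pfkl, at 90.5, 219 and 413 CPM in the 9 lines and 46.5 CPM in the parental line, lay 4.70-fold higher by the median. Smaller gaps separated the glucose transporter gene Slc2a1, at 89.9, 121 and 151 CPM in the 9 lines and 55.1 CPM in the parental line, and the aldolase gene Aldoa, at 492, 875 and 1430 CPM in the 9 lines and 323 CPM in the parental line.

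Other members of the same list did not share that pattern. Vegfa, the vascular growth factor, was at 63.2, 188 and 275 CPM in the 9 lines and 178 CPM in the parental line. Ldha, lactate dehydrogenase A, was at 580, 1100 and 2350 CPM in the 9 lines and 1200 CPM in the parental line. The parental level of both lay inside the range of the 9 lines, as did that of Bnip3, a hypoxia-induced mitophagy receptor. Pgk1, phosphoglycerate kinase, ran from 3.98 to 492 CPM in the 9 lines, against 130 CPM in the parental line, which lay inside that range.

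Antioxidant genes controlled by the transcription factor NRF2 were also frequent above the parental line. Of 37 tested members, 12 (32.4%, against 14.1% of all genes tested) were higher and 2 (5.41%, against 15.4%) lower in all 9 lines. Of these members 0 passed the edgeR test (median log2 change 0.52). At an unadjusted p under 0.05, edgeR had 7 higher and 1 lower. Nqo1, a quinone reductase and a standard NRF2 target, was at 5.91, 18.7 and 48.5 CPM in the 9 lines and 0.921 CPM in the parental line (edgeR adjusted p = 0.47). G6pdx, which opens the pentose phosphate pathway, was at 46.2, 121 and 170.0 CPM in the 9 lines and 31.1 CPM in the parental line. Hmox1, the haem oxygenase that NRF2 also induces, was at 26.3, 62.3 and 154 CPM in the 9 lines and 136 CPM in the parental line, and Sod2, the mitochondrial superoxide dismutase, was lower in all 9, at 21.4, 44.5 and 95.3 CPM against 124 CPM in the parental line. The list thus held members on both sides.

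Among 26 tested genes of ERBB receptors, their ligands and ERK feedback, 6 (23.1%, against 14.1% of all genes tested) were higher in all 9 lines. In all 9, 1 (3.85%, against 15.4%) was lower, and 0 passed the edgeR test (median log2 change 0.49). By unadjusted p under 0.05 in edgeR, 4 were higher and 1 lower. The 6 were all ERK targets or feedback inhibitors. Egr1, an immediate early transcription factor, was at 24.6, 54.9 and 116 CPM in the 9 lines and 5.35 CPM in the parental line, 10.3-fold higher by the median (edgeR adjusted p = 0.451). The ETS factor genes Etv4, at 10.6, 21.9 and 48.8 CPM in the 9 lines and 3.9 CPM in the parental line, and Etv5, at 39.1, 60.5 and 106 CPM in the 9 lines and 17.4 CPM in the parental line, lay on the same side. So did the inhibitor genes Spry4, at 17.5, 31.1 and 49.8 CPM in the 9 lines and 6.69 CPM in the parental line, Spry1, at 29.5, 165 and 547 CPM in the 9 lines and 22.1 CPM in the parental line, and Dusp6, at 72.5, 228 and 428 CPM in the 9 lines and 53.6 CPM in the parental line. The receptors and ligands did not share this pattern. Egfr, the epidermal growth factor receptor gene, was at 1.27, 4.74 and 7.37 CPM in the 9 lines and 7.51 CPM in the parental line, just outside their range, and the ligand gene Areg, at 1.96, 12.8 and 86.2 CPM in the 9 lines and 14.5 CPM in the parental line, overlapped it.

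Cytokines, chemokines and NF-kB targets lay mostly on the lower side. Of 36 tested members, 12 (33.3%, against 15.4% of all genes tested) were lower in all 9 lines, 5 were higher in all 9 and 0 passed the edgeR test, with a median log2 change of -0.59. Unadjusted, edgeR gave 1 higher and 11 lower at p under 0.05. The neutrophil-attracting chemokine genes Cxcl1, Cxcl2, Cxcl3 and Cxcl5 were all among the 12. Cxcl1 was at 10.4, 26 and 70.6 CPM in the 9 lines and 114 CPM in the parental line, 4.38-fold lower by the median (edgeR adjusted p = 0.482). Cxcl3 was at 0, 0.12 and 0.671 CPM in the 9 lines and 2.51 CPM in the parental line, and Cxcl5 at 1.76, 6.26 and 11.3 CPM in the 9 lines and 13.6 CPM in the parental line. Ccl2, which attracts monocytes, was at 0, 0.0929 and 2.67 CPM in the 9 lines and 6.37 CPM in the parental line, and Ccl20, the ligand of Ccr6, at 0.133, 0.641 and 2.01 CPM in the 9 lines and 5.4 CPM in the parental line. Csf1, the macrophage growth factor gene, was at 207, 307 and 764 CPM in the 9 lines and 922 CPM in the parental line. Nfkbia lay at the edge of the range, at 61.9, 89.4 and 143 CPM in the 9 lines and 145 CPM in the parental line. Il34, the second ligand of the Csf1 receptor, went the other way, with 1.54, 2.86 and 4.41 CPM in the 9 lines and 0.439 CPM in the parental line (edgeR adjusted p = 0.451).

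The promoters of 4 of these chemokine genes are shown because they hold a match to the NF-kB consensus motif. They are the 150 bases before the annotated start, from RefSeq on GRCm38.p6, 5′ to 3′ on the gene's own strand, which is the plus strand for all 4; capitals mark the match, searched on both strands.
Cxcl1 (chr5:90891095-90891244): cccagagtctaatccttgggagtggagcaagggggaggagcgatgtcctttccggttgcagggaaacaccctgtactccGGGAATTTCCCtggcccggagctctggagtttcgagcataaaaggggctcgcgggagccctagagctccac
Cxcl2 (chr5:90903749-90903898): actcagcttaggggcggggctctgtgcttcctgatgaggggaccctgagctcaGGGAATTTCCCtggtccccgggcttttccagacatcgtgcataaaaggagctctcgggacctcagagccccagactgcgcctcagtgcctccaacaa
Cxcl3 (chr5:90785951-90786100): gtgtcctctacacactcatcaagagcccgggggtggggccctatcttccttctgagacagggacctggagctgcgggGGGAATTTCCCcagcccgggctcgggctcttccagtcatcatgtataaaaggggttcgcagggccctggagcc
Ccl20 (chr1:83116616-83116765): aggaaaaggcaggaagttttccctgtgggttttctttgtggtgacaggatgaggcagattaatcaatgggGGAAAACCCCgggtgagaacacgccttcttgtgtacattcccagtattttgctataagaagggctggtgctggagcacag
Cxcl1, Cxcl2 and Cxcl3, neighbours on chromosome 5, hold the same run GGGAATTTCCC, in which overlapping matches on the 2 strands lie 1 base apart. Of the 12 members lower in all 9 lines, 9 had a promoter in the RefSeq table and 5 of these (55.6%) held a match, the fifth being Nfkbia. The share was 12.5% (2 of 16) among the other tested members and 2.75% (742 of 27025) among all promoters of that length. The list is named in part for NF-kB targets, so its excess over all promoters belongs to the choice of the list, and a match does not show binding. The split within the list rests on few genes, and the neighbours Cxcl1, Cxcl2 and Cxcl3 are not separate cases. The part of NF-kB in the lower levels was not tested.

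**Figure D3:**
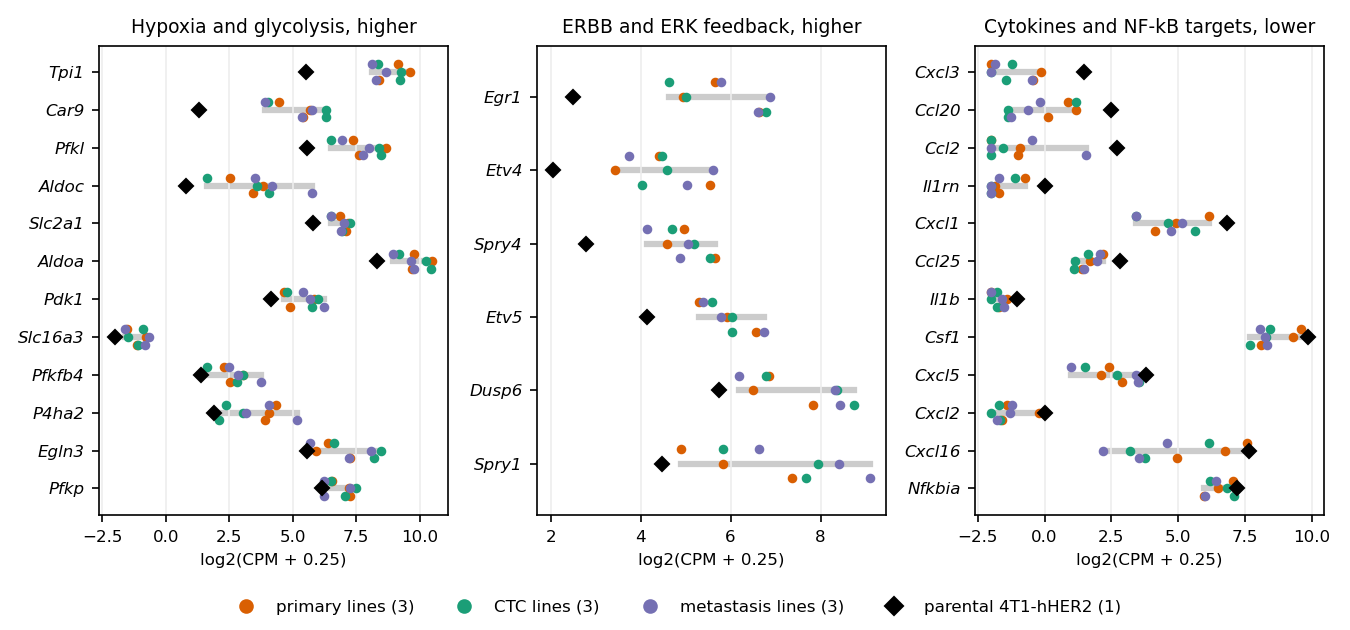
Members of 3 gene lists that were on one side of the parental level in all 9 lines, on log2(CPM + 0.25), with the 9 passaged lines as coloured points by tissue, their span as a grey bar and the parental library as a black diamond. Tpi1 and Car9 lie well above the parental level of 46.4 and 2.25 CPM, all 6 ERK targets lie above theirs, and Cxcl1 lies below its parental level of 114 CPM in every line.

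Epithelial genes lay on both sides of the parental level. Of 34 tested members, 8 (23.5%, against 15.4% of all genes tested) were lower in all 9 lines, 2 (5.88%, against 14.1%) were higher in all 9 and 0 passed the edgeR test (median log2 change -0.60). At an unadjusted p under 0.05, edgeR had 0 higher and 4 lower. The count of lower members rests on the setting: it was 5 with library size scaling alone and 16 without primary 7. Cldn4, a tight junction claudin gene, was at 13.6, 54.1 and 437 CPM in the 9 lines and 492 CPM in the parental line, with primary 7 the highest of the 9. Dsc2, a desmosomal cadherin gene, was at 0, 0.107 and 3.53 CPM in the 9 lines and 13.8 CPM in the parental line. The epithelial transcription factor gene Elf3 was at 6, 15.6 and 46.5 CPM in the 9 lines and 76.5 CPM in the parental line. Cdh1, which encodes E-cadherin, was at 77.3, 107 and 627 CPM in the 9 lines and 366 CPM in the parental line, and Epcam at 15.7, 39.7 and 204 CPM in the 9 lines and 56 CPM in the parental line. For both, some passaged lines were above and others below the parental level. Krt8, a simple-epithelium keratin gene, was higher in all 9, at 114, 380 and 1230 CPM against 54.7 CPM in the parental line, whereas its partner Krt18, at 303, 1160 and 1460 CPM in the 9 lines and 404 CPM in the parental line, overlapped.

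On the mesenchymal list, 5 of 21 tested genes (23.8%, against 14.1% of all genes tested) were higher in all 9 lines. In all 9, 2 (9.52%, against 15.4%) were lower, and 0 passed the edgeR test. By unadjusted p under 0.05 in edgeR, 1 were higher and 1 lower. Vim, which encodes vimentin, was at 584, 2120 and 4750 CPM in the 9 lines and 301 CPM in the parental line, 7.02-fold higher by the median (edgeR adjusted p = 0.482). Zeb1, a repressor of E-cadherin, was at 0.77, 1.45 and 3.18 CPM in the 9 lines and 0.397 CPM in the parental line. Snai1, another such repressor, was lower in all 9, at 16.9, 26.8 and 28.7 CPM against 35.4 CPM in the parental line. The list therefore had members on both sides of the parental level.

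Among matrix and protease genes, Spp1, which encodes the integrin ligand osteopontin, was at 305, 2990 and 9540 CPM in the 9 lines and 45.9 CPM in the parental line (edgeR adjusted p = 0.458). Primary 7 was the lowest and metastasis 5 the highest of the 9. Spp1 shares exons with Gm42793. Of 30 tested proteases and inhibitors, 8 (26.7%, against 14.1% of all genes tested) were higher in all 9 lines. In all 9, 4 (13.3%, near the 15.4% of all genes tested) were lower, and 0 passed the edgeR test. Unadjusted, edgeR gave 5 higher and 0 lower at p under 0.05. Mmp3, stromelysin, was at 6.28, 93.5 and 886 CPM in the 9 lines and 2.34 CPM in the parental line, and Ctsl, cathepsin L, at 845, 2170 and 5220 CPM in the 9 lines and 457 CPM in the parental line. Mmp14, a membrane-bound collagenase, was at 126, 201 and 432 CPM in the 9 lines and 71.6 CPM in the parental line. Mmp9, often studied in 4T1 tumours, was at 14.6, 34.7 and 87.7 CPM in the 9 lines and 33.4 CPM in the parental line and overlapped it. The fibroblast marker sum given above spans 5.07 to 284 CPM in the same 9 lines, and its part in the matrix values was not tested.

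The list of integrin chains, which does not hold Itgb2, was close to the share over all genes only when gaps of any size were counted. Of 16 tested members, 3 (18.8%, against 14.1% of all genes tested) were higher in all 9 lines. All 3 were higher by at least 2-fold, which held for 1.41% of all genes tested. In all 9, 1 was lower, and 0 passed the edgeR test. The median log2 change was 1.18, against 0.10 over all genes tested. At an unadjusted p under 0.05, edgeR had 3 higher and 0 lower. Itgb7, a lymphocyte homing integrin chain, was at 3.94, 17.8 and 67.5 CPM in the 9 lines and 0.453 CPM in the parental line. Itga1, a collagen receptor chain, was at 3.31, 41.6 and 75.6 CPM in the 9 lines and 0.737 CPM in the parental line, and Itgb3 at 0.625, 3.61 and 12.7 CPM in the 9 lines and 0.0567 CPM in the parental line. Itgb1, the chain shared by most matrix-binding integrins, was at 346, 1250 and 1500 CPM in the 9 lines and 1850 CPM in the parental line.

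Genes that immune cells read lay on both sides of the parental level. Of 30 tested genes of MHC and antigen presentation, 7 (23.3%, against 14.1% of all genes tested) were higher in all 9 lines. In all 9, 3 (10%, against 15.4%) were lower, and 0 passed the edgeR test (median log2 change 0.18). By unadjusted p under 0.05 in edgeR, 3 were higher and 0 lower. The higher members included ligands of the activating NKG2D receptor. Ulbp1, one such ligand, was at 9.26, 44.2 and 101 CPM in the 9 lines and 3.36 CPM in the parental line (edgeR adjusted p = 0.453), and Raet1e, another, at 0.77, 2.26 and 4.48 CPM in the 9 lines and 0.17 CPM in the parental line. Counts of Raet1e are uncertain, since it shares exons with near-identical family members. The class I genes H2-K1, at 99.4, 131 and 409 CPM in the 9 lines and 203 CPM in the parental line, and B2m, at 631, 953 and 2080 CPM in the 9 lines and 1090 CPM in the parental line, overlapped. Cd74, the MHC class II chaperone gene, was lower in all 9, at 5.2, 18.4 and 63.4 CPM against 79 CPM in the parental line. Of 21 tested checkpoint ligand and death receptor genes, 5 (23.8%, against 15.4% of all genes tested) were lower in all 9, among them Fas, Cd276 and Cd47, and 3 (14.3%, close to the 14.1% of all genes) were higher.

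Water, urea and ion channel and carrier genes had 9 of 24 tested members (37.5%, against 14.1% of all genes tested) higher in all 9 lines. In all 9, 1 (4.17%, against 15.4%) was lower, and 0 passed the edgeR test. Unadjusted, edgeR gave 6 higher and 1 lower at p under 0.05. Beside Aqp1, the list held Aqp5, another water channel, at 4.93, 22.2 and 43.7 CPM in the 9 lines and 2.97 CPM in the parental line, and the calcium channel gene Trpv4, at 47.8, 81.2 and 101 CPM in the 9 lines and 36.2 CPM in the parental line. On the list of stem-like markers and drug efflux, 6 of 17 (35.3%, against 14.1%) were higher and 2 (11.8%, against 15.4%) lower in all 9. Abcb1a, a multidrug efflux pump gene, was at 3.24, 4.65 and 12.1 CPM in the 9 lines and 1.47 CPM in the parental line, and Klf4, a pluripotency-associated factor, at 14.4, 45.5 and 91.3 CPM in the 9 lines and 8.54 CPM in the parental line. Abcg2, another efflux pump gene, lay on the other side, at 0.104, 0.464 and 14.4 CPM in the 9 lines and 16.2 CPM in the parental line.

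Several other lists stayed at or below the share seen over all genes. Of 36 cell cycle genes, 1 (2.78%) was higher and 4 (11.1%) lower in all 9 lines. Their median log2 change was nonetheless 0.77, against 0.10 over all genes tested, with 29 members above 0 and 7 below. Unadjusted, edgeR gave 3 higher and 1 lower at p under 0.05. Among the 4 genes lower in all 9 was Ccnd2, cyclin D2, at 69.3, 151 and 321 CPM in the 9 lines and 427 CPM in the parental line. The 39 interferon-stimulated genes had 2 members (5.13%) above the parental line in all 9 and 1 (2.56%) below it, and a median log2 change of -0.06. Of 13 mitochondrially encoded genes, 0 were outside the range. Of 18 Notch genes, 0 were higher and 1 was lower, and of 34 metastasis suppressors and promoters, 2 (5.88%) were higher and 3 (8.82%) lower.

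**Figure D4:**
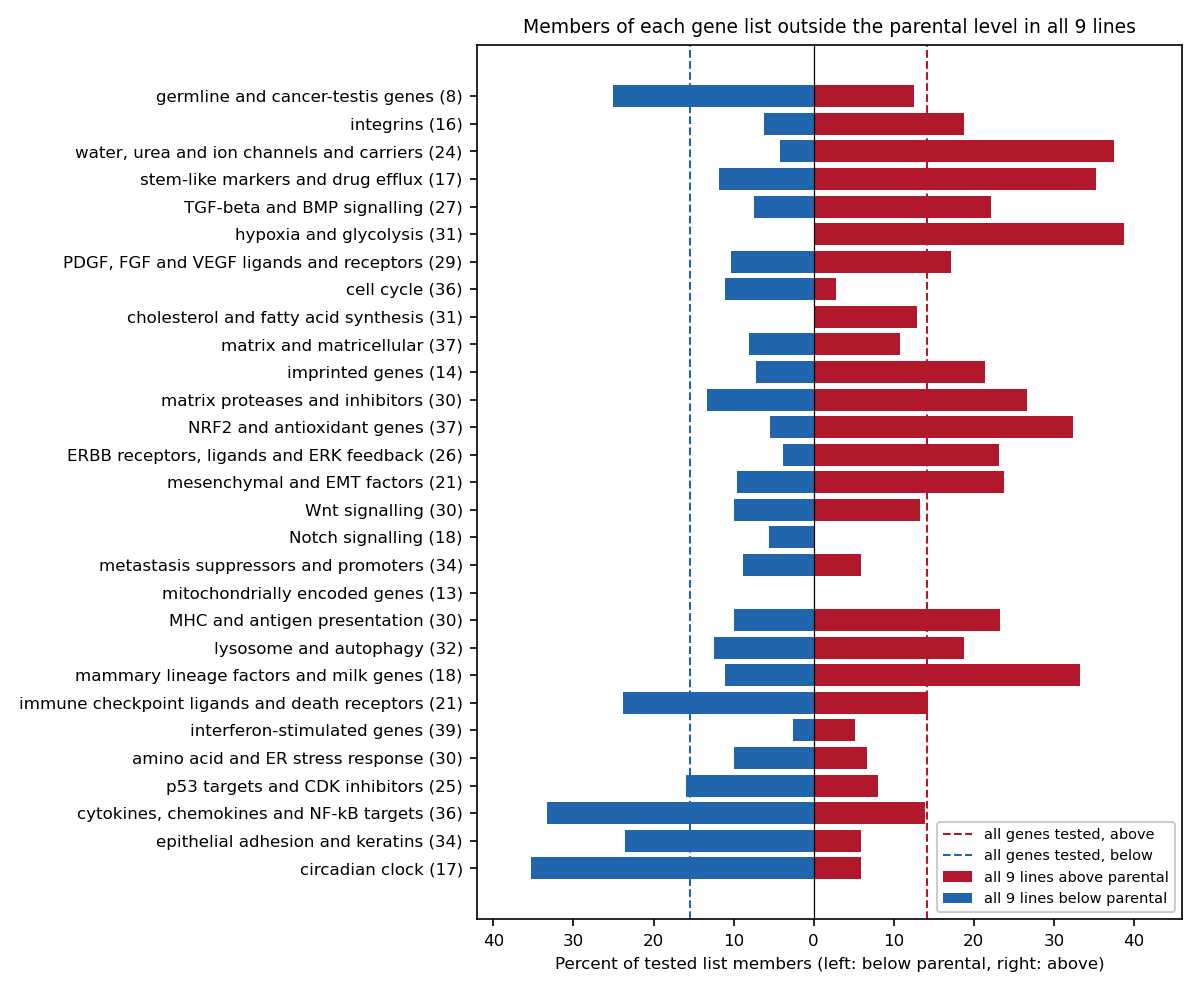
Share of tested members of each gene list (number in brackets) for which all 9 passaged lines were above (red, right) or below (blue, left) the parental level, in percent, ordered by the median log2 change. Dashed lines give the shares over all 19936 genes tested, 14.1% above and 15.4% below: hypoxia and glycolysis reached 38.7% above, cytokines and NF-kB targets 33.3% below, and the clock list was chosen after values were seen.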

How the data were processed

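RNA-seq of 9 mouse-passaged lines and 1 parental line was analysed from the deposited gene and transcript tables, which hold StringTie's estimated counts as whole numbers. Per the labels, libraries were made with an Illumina TruSeq total RNA kit, although the molecule is labelled polyA RNA, and sequenced as paired ends on a HiSeq 2500. The submitters' processing notes name HISAT2 2.1.0, StringTie 2.0.3, DESeq2 1.26.0 and GRCm38. The annotation release and the use of strand are not given in the sources used here. For 55417 gene symbols matched to GENCODE M21, the deposited estimated count equalled the sum of the gene's annotated transcripts in all 10 libraries, so reads assigned to newly assembled transcripts (19.7 to 22.8% of counts in the 9 lines, 22.4% in the parental line) lie outside the annotated genes.

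Counts of annotated genes were filtered by edgeR's filterByExpr, scaled by TMM and tested with edgeR 4.0.16 (R 4.3.3) in a fit of 4 groups, as the mean of the 3 passaged tissues minus parental, with Benjamini-Hochberg adjustment over 19936 genes. The common biological coefficient of variation was 0.606. A second, untested rule called genes whose parental level lay at least 2-fold outside the 9 lines. DESeq2 1.42.0 and limma 3.58.1 (voom) were alternatives, beside other scalings, filters, pseudocounts and gap sizes and leaving out each line. The scripts were tested on simulated data. The smallest median squared difference between 2 passaged lines was 16.8 times counting variance, so no library was treated as a duplicate.

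Named genes were the 12 with the widest gap in each direction among 2-fold calls with a mean of at least 2 CPM, leaving out predicted genes, clones and pseudogenes; up to 3 members of each list outside the range; up to 6 genes per direction with the smallest p; and fixed markers. Other list members that are named, and the clock list, were picked with values in view. Members and lists were chosen with earlier results of these data known. Same-numbered lines deviated together from their tissue means (r = 0.388, 0.49 and 0.12, across genes, against a median of -0.0526 for other pairs). The labels do not say that the numbers pair lines, and the parental line has no number. The numbers were used only in the limma-voom alternative with a random replicate block. The edgeR fit had no block and treated the passaged lines as independent, so its p-values do not account for pairing.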

Additional observations from a re-analysis of the deposited data

Results flagged for a closer look

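Dixon's test at the 95% level was run on the 115 genes picked by the naming rules, not all of which are described above. In 12 of them, 1 of the 9 passaged lines stood apart from the other lines. Chance flags about 1 in 20 groups. Primary 8 had 31 CPM of Myo5a (next line 3.19), 3.53 CPM of Dsc2 (next 0.64) and 4.52 CPM of As3mt (next 11.5). It also had 0.948 CPM of the Wnt signalling gene Lgr6 (next 26). Metastasis 5 had 41.2 CPM of Mcm5, a subunit of the replicative helicase (next 177), 4.06 CPM of Gm3435 (next 9.04) and 0.0781 CPM of Zbtb40 (next 5.9). Metastasis 7 had 1.3 CPM of Ston2 (next 0.552) and 0.436 CPM of Sycp3, a meiotic chromosome gene (next 0.182). Primary 7 had 4.26 CPM of Muc1 (next 1.08) and 1.29 CPM of Zfp65 (next 3.02), and CTC 3 had 0.232 CPM of Ptprc (next 0.0976). Primary 8, which was among the lines nearest to the parental line, stood on the parental side of the other lines for all 4 of its genes. For Myo5a this held for the gene sum only. The transcript with up to 2098 counts in the 9 lines had 6 in the parental line.

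Outside the annotated genes, the 17026 assembled entries that passed the filter included 357 (2.1%) with all 9 lines at least 2-fold above the parental line and 543 (3.19%) below it, against 1.41% and 0.682% of annotated genes.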

How the results depend on the processing

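The edgeR counts of 1 gene higher and 3 lower became 0 and 0 with entries sharing exons summed, 24 and 18 with assembled transcripts included, 3 and 5 with the passaged lines as 1 group, 605 and 68 by DESeq2, and 2 and 22 by limma-voom; 1 was lower with a mean of at least 2 CPM, and leaving out 1 line gave 1 to 2 higher and 3 to 5 lower. The 282 and 136 genes at least 2-fold outside the range became 638 and 650 with assembled transcripts, 496 and 255 at a pseudocount of 0.05 CPM, 151 and 58 at 1 CPM, 712 and 494 at a 1.5-fold gap, 50 and 16 at a 4-fold gap, and 651 and 401 for 8 of 9 lines; 28 were lower with a mean of at least 2 CPM. Leaving out 1 line gave 288 to 455 higher and 138 to 207 lower, both highest without primary 8. The rule asks for all lines, so these counts can hardly fall when 1 is left out. Leaving out lines therefore does not test how stable they are.

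Members outside the range on leaving out 1 line numbered 12 to 13 (hypoxia), 12 to 14 (NRF2), 6 to 7 (ERBB and ERK), 9 to 12 (channels), 6 to 7 (stem-like and efflux), 12 to 15 (cytokines), 7 to 16 (epithelial), 3 to 4 (integrins), 7 to 10 (MHC) and 8 to 11 (proteases). By the same rule these counts could hardly fall, so their ranges do not test how stable they are. The epithelial count was 5 with library size alone.

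With the number as a random replicate block in limma-voom (correlation 0.484), 18 genes were lower, and Ftl1-ps1 lost its call (adjusted p = 0.119), as it did under limma-voom without the block (0.0702). With the block Postn (0.00921) and Stat6 (0.0495) passed, as both did without it (0.00571 and 0.0367). A fixed block could not be fitted because the parental line carries no number. Over 115 named genes and 16 alternatives, 1759 values kept direction and side of the threshold, 76 passed it newly, 2 lost it, and 2 changed sign, both with the passaged lines as 1 group: Epcam (log2 change 0.17) and Xist (0.33). The cause of these differences was not tested. Scaling moved the median over all genes between 0.08 and 0.18. A single parental library gives no estimate of its own spread, which limits every comparison.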

Other observations

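Growth factor and TGF-beta genes not described above also lay outside the range. Igfbp4, a binding protein of insulin-like growth factors, was at 432, 1420 and 2430 CPM in the 9 lines and 233 CPM in the parental line, and Tgfb1 at 19.4, 76.5 and 116 CPM in the 9 lines and 12.3 CPM in the parental line. Vegfc, the lymphatic growth factor gene, was lower in all 9, at 2.53, 7.35 and 21.5 CPM against 40.7 CPM in the parental line. Wnt10b was at 2.06, 7.62 and 28.1 CPM in the 9 lines and 0.765 CPM in the parental line, and the receptor gene Fzd7 at 9.53, 25.3 and 76.4 CPM in the 9 lines and 91.9 CPM in the parental line. Of 31 tested cholesterol and fatty acid genes, 4 (12.9%, below the 14.1% of all genes tested) were higher and 0 lower in all 9; Fdft1, squalene synthase, was at 26.2, 43.9 and 110 CPM in the 9 lines and 9.46 CPM in the parental line. None of these passed the edgeR test (adjusted p = 0.451 to 0.484).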
